A study of Mus musculus with 12 samples.

Results

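The genes described here are those whose mouse symbol ends in -ps, with or without a number, the ending that the nomenclature gives to sequences named as pseudogenes of a parent gene. Membership was set by symbol alone, though the list was chosen with earlier results of these data known. Each member was paired with its parent, the gene named before the ending, where the table holds it. A symbol was found for 29857 of the 30323 deposited genes, 1143 of these symbols end in -ps, and 538 were above 0 TPM, a transcript abundance per unit of length and library, in at least 1 library. A parent was in the table for 377 of the 538, which together have 175 parents. The RNA came from the soleus, a calf muscle that works in standing, and the animals were C57BL/6N males from the NIA aging colony, 24 months old, housed singly with running wheels for 8 weeks. Mice were called low functioning (LF) or high functioning (HF) from an accelerating rotarod, on which an animal walks on a turning rod that speeds up, and either had a laparotomy, a surgical opening of the abdomen, or served as controls. Muscle was taken 5 days after surgery. The 12 libraries form 4 groups of 3 (control and laparotomy within LF, and the same within HF), and all 4 groups share strain, sex, age and wheel access. The labels do not say that the libraries come from separate mice, so the spread behind each p-value is that among libraries and may be technical.

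A processed pseudogene arises when a messenger RNA is copied back into DNA by reverse transcription and inserted elsewhere in the genome. It lacks the introns of its parent, starts as a near copy of the spliced transcript, and gathers changes with time. Genes of ribosomal proteins, which are transcribed strongly in the germ line, are known for leaving many such copies. A sequencing read from a stretch that copy and parent share fits both, so a program that divides such reads gives each of them an estimate, and the TPM of near-identical pairs are uncertain. TPM are scaled by transcript length and to a fixed library total, so levels of different genes can be set side by side, but the read depth is unknown and no counting interval is given.

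The name -ps covers more than processed pseudogenes. By the GENCODE M21 annotation (GRCm38), 375 of the 538 genes (69.7%) are processed pseudogenes, 359 of them with 1 exon. Another 129 are unprocessed pseudogenes, which arise by duplication of a gene, and 19 are annotated as protein-coding. Among the 1143 symbols, 69.6% of the processed pseudogenes but 24.7% of the unprocessed ones were above 0. The -ps genes took between 0.470% and 0.644% of all TPM of a library, and 15 of them held 94.9% to 97.6% of that. A mean of at least 1 TPM over the 12 libraries, the level required for a test, was reached by 39 of the 538, of which 29 are annotated as processed, 7 as unprocessed and 3 as protein-coding (Rps12-ps3, Rpl10-ps3 and Nutf2-ps1). The other 499 had a median of 0.0316 TPM. Just outside that level was Rps2-ps10 at 0.877 TPM, and just inside it Rps13-ps4 at 1.07 TPM.

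Most of the abundant members are exact copies of part of a parent transcript, and 3 stretches show this, from the highest members Tpt1-ps3 and Rps12-ps3 and from Ptges3-ps, on which a comparison turns. Tpt1-ps3, Rps12-ps3 and Ptges3-ps are identical to their parents over their whole lengths of 519, 494 and 480 bases, and the first 120 coding bases are given 5′ to 3′, each the same in parent and copy. The stretches lie in GRCm38 at chr6:99878215-99878334 on the minus strand, chr19:59322371-59322490 on the plus strand and chr6:85843980-85844099 on the plus strand, each in the gene's only exon.
Tpt1-ps3 and Tpt1: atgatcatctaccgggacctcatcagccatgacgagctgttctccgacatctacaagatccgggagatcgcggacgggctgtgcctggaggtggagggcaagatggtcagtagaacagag
Rps12-ps3 and Rps12: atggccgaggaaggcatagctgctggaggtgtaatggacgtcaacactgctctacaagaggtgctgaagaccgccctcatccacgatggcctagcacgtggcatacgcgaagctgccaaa
Ptges3-ps and Ptges3: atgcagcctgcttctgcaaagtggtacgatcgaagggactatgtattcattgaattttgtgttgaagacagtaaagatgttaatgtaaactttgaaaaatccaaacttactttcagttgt
No base in these lines is in capitals, because none differs.

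Less exact copies are shown against the gene they resemble most, with capitals at the bases that differ and substitutions written as the base of the parent, its position from the 5′ end of the stretch, and the base of the copy. Eif4a-ps4 has no parent of that exact symbol in the table and is most like Eif4a1, from which it differs at 1 of 1218 bases (G61A in the stretch, at chr1:60704405-60704524, plus strand).
Eif4a-ps4: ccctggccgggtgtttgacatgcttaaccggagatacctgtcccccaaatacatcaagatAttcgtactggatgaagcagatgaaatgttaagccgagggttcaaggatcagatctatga
Eif4a1: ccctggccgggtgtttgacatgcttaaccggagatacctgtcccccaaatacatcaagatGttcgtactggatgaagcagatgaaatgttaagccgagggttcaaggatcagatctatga
Rpl14-ps1 differs from Rpl14 by 4 substitutions over its 653 bases, beside 3 gap positions, and C61T and A62G lie in the stretch at chr7:45325470-45325589, plus strand.
Rpl14-ps1: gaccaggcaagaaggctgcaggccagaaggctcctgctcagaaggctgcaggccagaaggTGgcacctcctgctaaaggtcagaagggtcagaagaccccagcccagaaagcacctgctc
Rpl14: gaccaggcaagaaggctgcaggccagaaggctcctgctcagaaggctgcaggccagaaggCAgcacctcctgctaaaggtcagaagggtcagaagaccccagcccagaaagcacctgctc
Rps19-ps3 differs from Rps19 by 14 substitutions over its 426 bases, beside 6 gap positions, with 10 of the substitutions in the stretch at chr4:147821811-147821990, minus strand, from G1A and A5G at its start to G179T at its end.
Rps19-ps3: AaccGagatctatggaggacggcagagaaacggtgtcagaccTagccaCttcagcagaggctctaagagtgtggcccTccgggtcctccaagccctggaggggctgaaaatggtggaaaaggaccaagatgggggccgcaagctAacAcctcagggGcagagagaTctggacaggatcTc
Rps19: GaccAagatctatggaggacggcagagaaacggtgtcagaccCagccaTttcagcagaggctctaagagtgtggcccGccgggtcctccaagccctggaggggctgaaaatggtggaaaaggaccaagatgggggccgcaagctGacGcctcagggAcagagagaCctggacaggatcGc
The lines for Rps19-ps3 carry differences in both the first and the last part of the stretch, with none between G78T and G145A, whereas Eif4a-ps4 and Eif4a1 differ at G61A alone.

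Copies identical to the parent stood far above the rest in level. Among the 458 annotated processed pseudogenes of the table that could be aligned to a parent, 19 were identical to it over their whole length. All 19 were above 0, 16 had a mean of at least 1 TPM, and their median was 118 TPM. The 76 that were at least 99% identical but not throughout had a median of 0.0873 TPM, and 6 of them reached 1 TPM. The 62 between 98% and 99% had a higher median, 0.115 TPM, and 1 of them reached that level, as did 2 of the 103 between 95% and 98%, whose median was 0.0239 TPM. None of the 105 between 90% and 95% did. Of the 93 below 90%, 1 did, Bambi-ps1. The medians of the parents did not follow that order: they were 162 TPM for the identical copies and 272 TPM for the copies at 99% or more. A second measure was the share of the words of 31 bases in a member's transcripts that occur in no other gene of the table, which was 2.61% at the median of the 39 tested members and 42.4% over all 538. Of the 39, 19 had no such word, so no stretch of that length is theirs alone. These are descriptions over genes that share libraries, and no test was made.

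**Figure D1:**
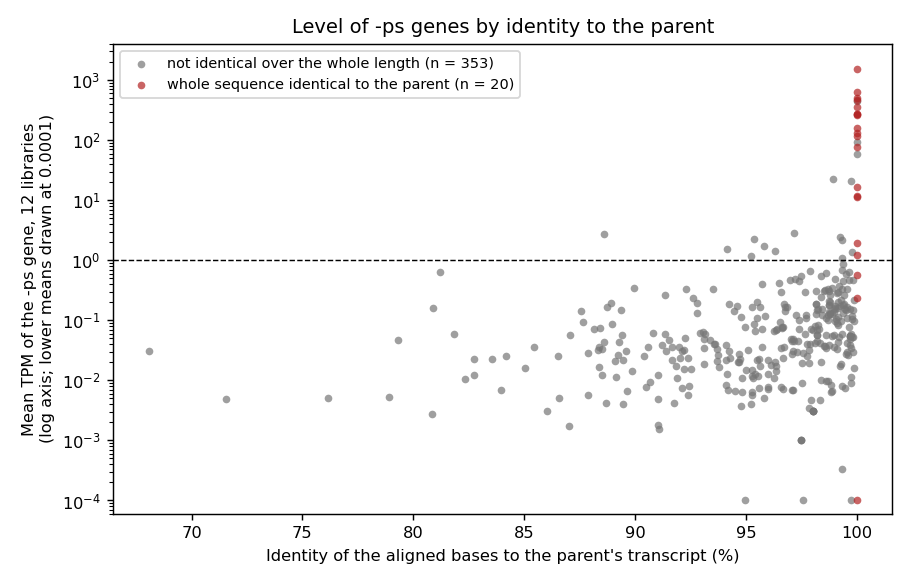
Mean TPM over the 12 libraries (log axis) of the 373 -ps genes above 0 that could be aligned to their parent, against the percent identity of the aligned bases, 1 point per gene; 20 are identical over their whole length (red) and 353 are not (grey), 4 means below 0.0001 TPM are drawn at 0.0001, and the dashed line marks 1 TPM. Most grey points lie below the line and most red points above it.

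Ribosomal protein genes were the largest role group, with 221 of the 538 members and 17 of the 39 tested. In order of mean TPM the highest 12 members were Tpt1-ps3 (1542), Rps12-ps3 (634), Rps23-ps1 (505), Rpl28-ps1 (459), Rpl10-ps3 (447), Rpl31-ps8 (361), Rps13-ps2 (275), Rpl27-ps3 (269), Rpl10a-ps1 (261), Rps16-ps2 (157), Rpl15-ps3 (129) and Rps6-ps4 (118). Tpt1 encodes a small, very abundant growth-related protein, and the other 11 parents encode proteins of the large (Rpl) or small (Rps) ribosomal subunit. Rpl10-ps3 is identical to Rpl10 over the 96.4% of its length that aligns, and the other 11 throughout. Beyond these, Mrpl23-ps1 (93.8 TPM), named after a mitochondrial ribosomal protein, Pdcd5-ps (75.6), which lies in an intron of Kcnk2 on its strand, and Nutf2-ps1 (59.0), named after a nuclear import factor, were highest. Kcnk2 itself had 1.27 TPM.

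For 11 of the 33 tested members with a parent, the pseudogene symbol had a higher mean than the parent. The widest gap was at Rps12, a protein of the small subunit. Rps12-ps3, 494 bases at chr19:59322290-59322783, had 471, 329 and 552 TPM in LF control, 663, 672 and 728 in LF laparotomy, 659, 656 and 755 in HF control, and 722, 687 and 715 in HF laparotomy. Rps12 had 0, 0.465 and 0.542 TPM, then 0.227, 0.483 and 0, then 0.582, 0.315 and 0.592, and then 1.12, 0.818 and 1.04 in the same order. The copy thus held between 99.8% and 100% of the pair's TPM in every library, and LF control 2 was its lowest.

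The other members above their parents were Rps23-ps1 (505 against 162 TPM), Rpl28-ps1 (459 against 217), Rpl10-ps3 (447 against 190.0), Rpl31-ps8 (361 against 292), Rpl27-ps3 (269 against 14.9), Rpl10a-ps1 (261 against 76.8), Mrpl23-ps1 (93.8 against 2.03), Nutf2-ps1 (59.0 against 13.6), Llph-ps2 (20.6 against 8.81) and Bambi-ps1 (2.72 against 0.338). Bambi, which encodes a decoy receptor of TGF-beta signalling, differs from the rest: its copy is 88.6% identical and 97.0% of the copy's words of 31 bases are its own. The other 10 are copies with at most 4.45% of such words. Which copy those reads came from was not tested.

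**Figure D2:**
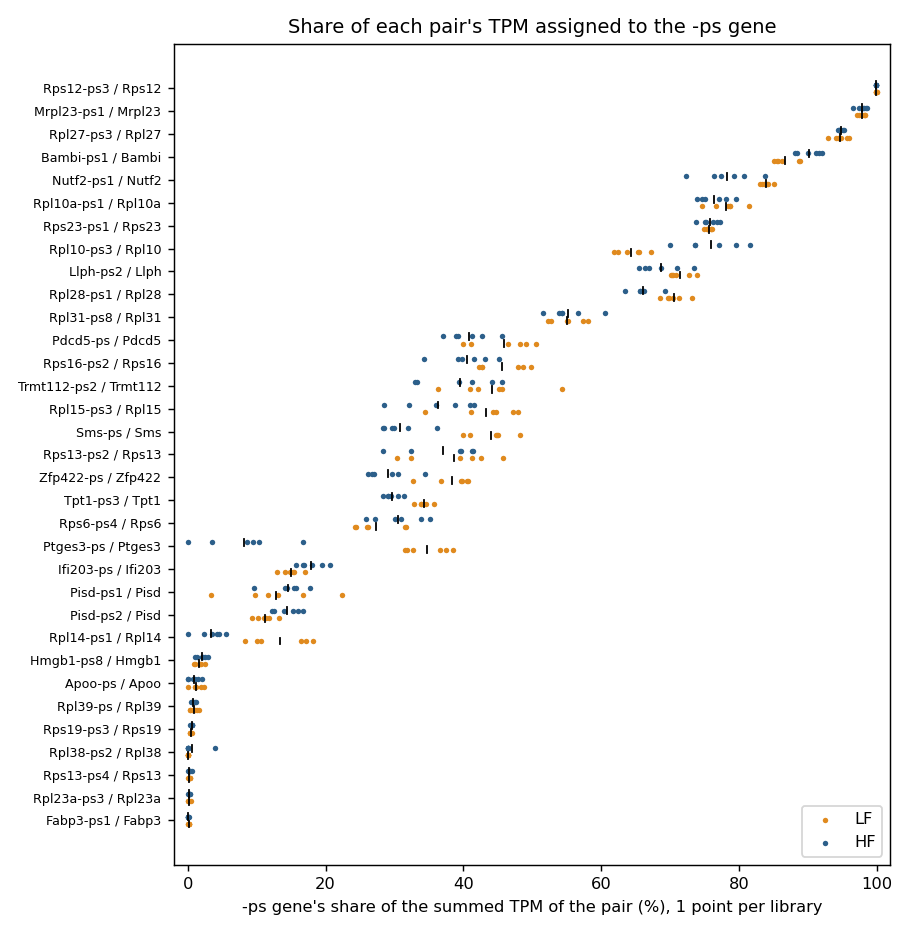
Percent of the summed TPM of each of 33 pairs that was assigned to the -ps gene, 1 point per library, with LF in orange and HF in blue, 6 libraries each, and a black bar at each mean; pairs are sorted by the share of the mean TPM. Shares run from near 0 for Fabp3-ps1 to near 100% for Rps12-ps3, and the points of Ptges3-ps, Sms-ps, Rpl14-ps1, Tpt1-ps3 and Rpl10-ps3 separate by function.

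The main comparison was HF against LF, averaged over treatments, with 6 libraries a side. It asks how pseudogenes and parents differ between the muscles of mice with high and low rotarod performance. Log2 differences of TPM + 1 are given ± the standard error and after subtracting the median over every gene tested, which was -0.15 as deposited, while the adjusted p-values (limma, Benjamini-Hochberg over all 10757 genes tested, threshold 0.05) test the differences as deposited. Of the 39 members 17 passed, 11 higher and 6 lower in HF. Over all genes 41.3% passed, so the share of members called was near the background, and 6.03% were higher and 35.3% lower. This split moves with scaling: with size factors 18 members were higher and 5 lower, and with quantile normalization 17 and 5, while among all genes the called share that was higher went from 14.6% to 49.2% and 46.0%. With a length and GC trend removed, 9 members were higher and 7 lower, and 44.3% of all genes called were higher. The median difference was 0.29 over the 39 members, 0.24 over the 158 parents tested (46 higher, 30 lower, but 94 and 13 with size factors, 78 and 16 with quantile normalization and 65 and 11 with a length and GC trend removed) and 0.10 over 142 other processed pseudogenes (18 higher, 39 lower). The libraries of HF and LF did not overlap for 11 of the 39, against 11.1% of all genes tested.

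The largest change was in Eif4a-ps4, the copy closest to Eif4a1, which encodes a helicase that unwinds messenger RNA for the start of translation. It had 19.9, 22.9 and 17.8 TPM in LF control and 16.1, 17.5 and 28.0 in LF laparotomy. In HF control it had 8.29e-09, 4.82 and 1.67 TPM, and in HF laparotomy 2.27, 1.8e-09 and 0.460. All 6 LF libraries lay above all 6 HF libraries. Its log2 difference was -3.21 ± 0.37 (adjusted p = 0.000276), and it was lower both in controls (-2.97 ± 0.52, adjusted p = 0.0137) and after laparotomy (-3.44 ± 0.52, adjusted p = 0.00302). Eif4a1 lay between 78.9 and 118 TPM in all 12 libraries, with a difference of 0.23 ± 0.10 (0.081 as deposited, adjusted p = 0.557). The copy's share of the 2 summed was 15.7% to 21.2% in LF and 1.73e-09% to 3.92% in HF.

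Ptges3-ps fell in the same way. Its parent Ptges3 encodes p23, a co-chaperone of Hsp90 that also makes prostaglandin E2. The copy had 17.7, 23.0 and 21.4 TPM in LF control, 14.4, 18.6 and 21.4 in LF laparotomy, 1.50, 7.90 and 2.97 in HF control, and 0, 3.94 and 4.40 in HF laparotomy. No HF library reached the lowest LF library. The difference was -2.32 ± 0.39 (adjusted p = 0.000772), and it passed within controls (-2.17 ± 0.55, adjusted p = 0.0276) and after laparotomy (-2.47 ± 0.55, adjusted p = 0.00794). Ptges3 had a mean of 36.3 ± 4.75 TPM in LF and 36.9 ± 3.69 in HF (SD, n = 6 each). The difference of Ptges3 was 0.17 ± 0.10 (0.027 as deposited, adjusted p = 0.846). The copy is identical to its parent in the stretch printed above and throughout. Its mean share of the pair was 34.8% in LF and 8.09% in HF.

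Rpl14-ps1, a copy of a large-subunit protein gene, had 46.4, 40.6 and 27.6 TPM in LF control and 22.5, 51.0 and 30.1 in LF laparotomy. HF control had 15.8, 12.7 and 0.0214 TPM and HF laparotomy 5.69, 8.73 and 11.7. The groups did not overlap by function, and HF control 3 stood far below the rest. The difference was -2.09 ± 0.55 (adjusted p = 0.00647). For Rpl14-ps1 it passed within controls (-2.53 ± 0.77, adjusted p = 0.0468), which include HF control 3, but not after laparotomy (-1.65 ± 0.77, adjusted p = 0.0921). Rpl14 had 206 to 272 TPM and a difference of 0.26 ± 0.062 (0.115 as deposited, adjusted p = 0.153). With its C61T and A62G in the stretch shown and 2 further substitutions, Rpl14-ps1 has 14.6% of its words of 31 bases to itself, more than Ptges3-ps, which has none.

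Sms-ps, a full-length coding copy of spermine synthase, an enzyme of polyamine synthesis, had 10.7 TPM at the lowest, 15.7 at the median and 19.0 at the highest in LF, and 6.14, 7.28 and 10.4 in HF. Its highest HF library lay just under its lowest LF library. It fell by 0.78 ± 0.11 on the log2 scale (adjusted p = 0.000345), and Sms differed by -0.032 ± 0.079 (adjusted p = 0.0845). With size factors or quantile normalization the parents Ptges3, Rpl14 and Nutf2 were called higher in HF (adjusted p up to 0.0272), and Sms was not. Eif4a1 was called higher too (adjusted p = 0.00859 with size factors). Sms was called lower without HF control 1 (adjusted p = 0.0459) or without LF laparotomy 1 (0.0287). Parent and copies were also summed, a value that still depends on how reads were divided within a family, since a read adds less TPM to a longer transcript. With the TPM of all its copies added, Ptges3 was lower in HF (-0.31 ± 0.11, adjusted p = 0.00493), as was Sms (-0.33 ± 0.087, adjusted p = 0.00147), and Rpl14 did not pass (0.10 ± 0.064, adjusted p = 0.600).

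The 2 other members lower in HF were Zfp422-ps and Nutf2-ps1. Zfp422-ps, an unprocessed pseudogene of a zinc finger gene, fell by 0.48 ± 0.10 (adjusted p = 0.000973). It had 2.29, 3.95 and 4.20 TPM at the lowest, median and highest in LF and 1.52, 1.86 and 2.70 in HF, with overlap. Its exon lies against an exon of Zfp955b on the opposite strand, none of its words of 31 bases, compared on both strands, is its own, and whether strand was used in counting is unknown here, so the 2 cannot be told apart. Zfp955b had 2.20 to 4.32 TPM in LF and 1.24 to 1.64 in HF (-0.66 ± 0.11, adjusted p = 0.000494). The parent Zfp422 passed as lower (adjusted p = 0.0456) but not with size factors (adjusted p = 0.547) or quantile normalization (0.556). Nor did it pass with a length and GC trend removed (0.836) or without the filter on low values (0.0717). With a single library left out, Zfp422 passed only when that was HF control 1, LF laparotomy 1 or LF laparotomy 3. Nutf2-ps1 had 57.8 to 68.5 TPM in LF and 47.5 to 57.2 in HF (-0.13 ± 0.069, adjusted p = 0.00693), a call that was lost with size factors (adjusted p = 0.37) and quantile normalization (adjusted p = 0.216).

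**Figure D3:**
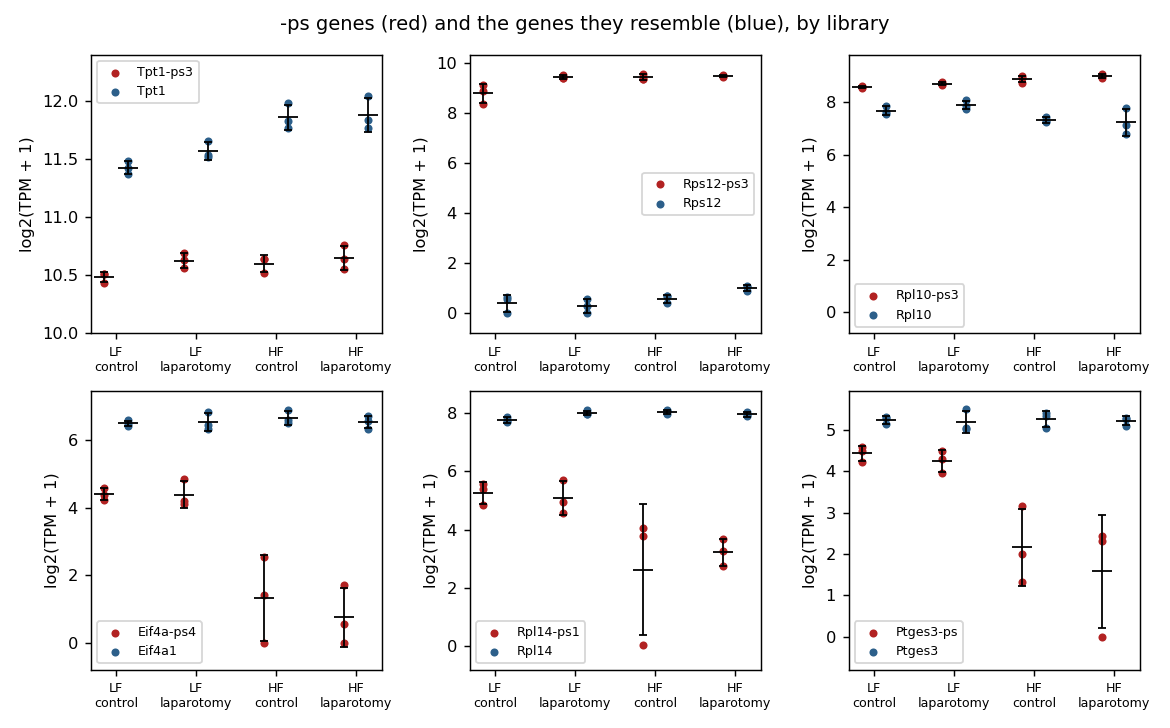
log2(TPM + 1) of 6 -ps genes (red) and the genes they resemble (blue) in the 4 groups, 1 point per library, with the mean and SD of 3 libraries as black bars; the axis of the Tpt1 panel starts at 10. Eif4a-ps4, Rpl14-ps1 and Ptges3-ps are lower in both HF groups while the blue points of the groups overlap, and Rps12-ps3 lies far above Rps12.

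Of the 11 members higher in HF, 8 were copies of ribosomal protein genes. Rpl31-ps8 had 271, 315 and 341 TPM at the lowest, median and highest in LF and 369, 408 and 465 in HF (0.55 ± 0.067, adjusted p = 0.00101). Rpl28-ps1 went from 345, 407 and 471 TPM to 497, 510.0 and 531 (0.48 ± 0.062, adjusted p = 0.00153). Rps23-ps1 went from 392, 453 and 484 TPM to 527, 555 and 625 (0.47 ± 0.061, adjusted p = 0.00174). In none of these 3 did HF and LF libraries overlap, and their parents were higher as well: Rpl31 by 0.55 ± 0.061 (adjusted p = 0.000726), Rpl28 by 0.78 ± 0.082 (adjusted p = 0.000374) and Rps23 by 0.46 ± 0.061 (adjusted p = 0.00204). The exon of Rps23-ps1 overlaps Gm5148 on the opposite strand, which had a mean of 0.134 TPM.

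Rps12-ps3 (0.49 ± 0.10, adjusted p = 0.0198), Rps6-ps4 (0.48 ± 0.096, adjusted p = 0.0164), Rps19-ps3 (0.57 ± 0.13, adjusted p = 0.0185) and Rpl27-ps3 (0.41 ± 0.082, adjusted p = 0.0204) also rose, and all 4 overlapped between HF and LF. Rps12-ps3 no longer passed without HF control 3 (adjusted p = 0.0521) or with a length and GC trend removed (0.0713), and neither it nor Rps19-ps3 passed without the filter on low values (0.0645 and 0.0655). That trend removed also ended the calls of Rps19-ps3 (adjusted p = 0.17) and Rpl27-ps3 (0.154), and that of Rps6-ps4 ended (0.0859) when LF control 3, LF laparotomy 1 and HF laparotomy 2, in which Myh4 was above 30 TPM, were dropped. Myh4 encodes the fastest myosin and marks fast fibres. Rps19-ps3 is the most diverged of the 8, with 51.8% of its words of 31 bases its own, and had 1.36 to 2.38 TPM in LF and 1.75 to 3.50 in HF beside 352 to 505 and 459 to 570.3 TPM of Rps19.

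Rpl10 was the gene where copy and parent moved in opposite directions. Rpl10-ps3 had 382, 373 and 388 TPM in LF control, 411, 405 and 435 in LF laparotomy, 508, 488 and 428 in HF control, and 486, 545 and 513 in HF laparotomy. Only HF control 3 lay below the highest LF library. It rose by 0.45 ± 0.063 (adjusted p = 0.00271). Rpl10 had 187, 197 and 233 TPM, then 233, 214 and 269, then 151, 175 and 153, and then 109, 140.0 and 220.1, and fell by 0.36 ± 0.14 (adjusted p = 0.0115). The fall of Rpl10 did not pass with size factors (adjusted p = 0.0559) or when those 3 libraries were dropped (0.0795), and HF laparotomy 3 alone lay within the LF range. The copy's share was 61.8% to 67.2% in LF and 70.0% to 81.6% in HF. Parent and copies summed differed by 0.22 ± 0.071 (0.0712 as deposited, adjusted p = 0.442).

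The other 3 members higher in HF were Ifi203-ps, Bambi-ps1 and Mrpl23-ps1, and none of them overlapped between HF and LF. Ifi203-ps, an unprocessed pseudogene of an interferon-inducible gene with 8 exons, had 0.645 to 0.976 TPM in LF and 1.12 to 1.82 in HF (0.61 ± 0.089, adjusted p = 0.00187), and its parent Ifi203 was higher too (0.63 ± 0.12, adjusted p = 0.00588). Bambi-ps1 had 1.65 to 2.61 TPM in LF and 2.85 to 3.85 in HF (0.59 ± 0.10, adjusted p = 0.00461), beside 0.288 to 0.383 TPM of Bambi, too low to be tested. Mrpl23-ps1 had 74.5 to 93.2 TPM in LF and 96.5 to 107 in HF (0.42 ± 0.065, adjusted p = 0.00623), and Mrpl23 differed by 0.32 ± 0.15 (adjusted p = 0.346).

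Tpt1-ps3, the most abundant member, did not pass the test. It had 1458, 1382 and 1457 TPM in LF control, 1508, 1583 and 1646 in LF laparotomy, 1596, 1595 and 1463 in HF control, and 1498, 1728 and 1588 in HF laparotomy, with overlap between HF and LF. The difference was 0.22 ± 0.061 (0.068 as deposited, adjusted p = 0.388), although with size factors it passed (adjusted p = 0.00533). Tpt1 had 2643 to 3227 TPM in LF and 3475 to 4229 in HF, with no overlap, and rose by 0.52 ± 0.069 (adjusted p = 0.00165). So the share of the pair assigned to the copy was 32.9% to 35.7% in LF and 28.3% to 31.4% in HF.

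The 31 pairs in which both genes were tested have 29 parents, as Rps13 and Pisd are each counted with more than 1 copy. Over these pairs, 6 were higher in HF in copy and parent and 1, Zfp422-ps, was lower in both. In 9 the parent was higher and the copy was not called, in 3 the parent was lower and the copy was not called, and in 5 neither was. The copy was lower and the parent not called in 4 (Sms-ps, Ptges3-ps, Rpl14-ps1 and Nutf2-ps1), and higher with the parent not called in 2 (Rps6-ps4 and Mrpl23-ps1). Rpl10-ps3 alone was higher beside a parent that was lower. A call in a copy and none in its parent is not a tested difference between them. The tally also depends on the setting. Among parents higher beside their copies, Rpl27 was not called with a length and GC trend removed (adjusted p = 0.130) or without the filter on low values (0.0738). With a single library left out, Rpl27 was called only when that was HF laparotomy 3, LF control 1 or LF laparotomy 3. Zfp422, the parent lower beside its copy, was not called with size factors (adjusted p = 0.547) or without most single libraries. Without the libraries with Myh4 above 30 TPM, Rpl27 (adjusted p = 0.203), Rps19 (0.0772) and Ifi203 (0.0518) were not called. Rps6 was called higher with size factors (adjusted p = 0.00737). The ranges of the copy's share of the pair did not overlap between HF and LF in 5 of 33 pairs with a parent, lower in HF in 4 (Ptges3-ps, Sms-ps, Rpl14-ps1 and Tpt1-ps3) and higher in 1 (Rpl10-ps3).

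**Figure D4:**
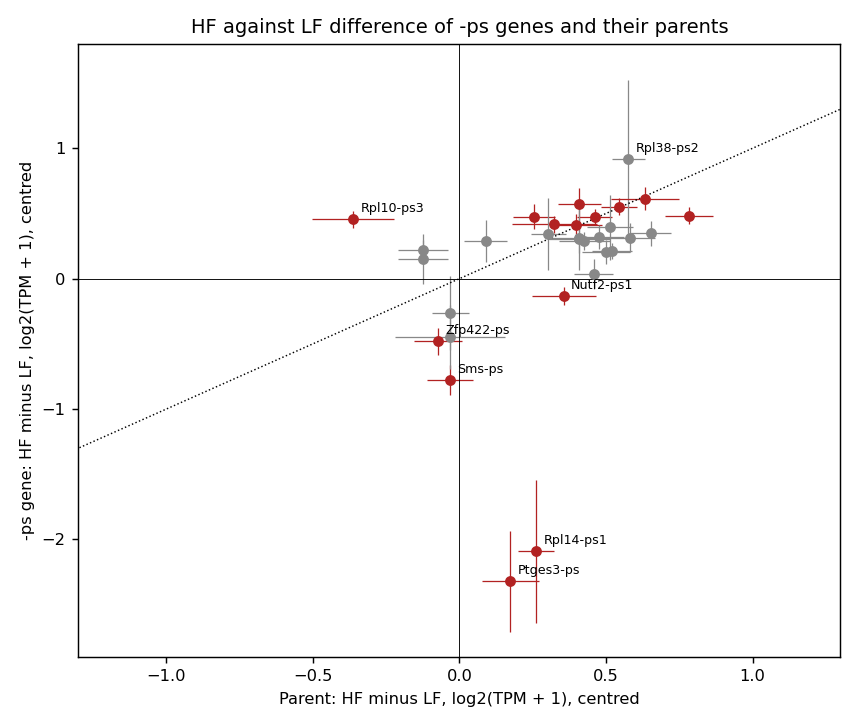
HF minus LF difference in log2(TPM + 1), averaged over treatments and centred on the median of the 10757 genes tested, of the -ps gene (vertical) and its parent (horizontal) for 31 pairs, with standard errors as bars; red points are -ps genes past an adjusted p of 0.05 and the dotted line marks equal differences. Ptges3-ps and Rpl14-ps1 lie near -2 beside parents above 0, and Rpl10-ps3 is the red point to the left of 0 that lies above 0.

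Within treatments, 14 of 39 members passed between HF and LF controls, where 10.5% of all genes passed, and 10 of 39 after laparotomy, where 26% did. Of the 158 parents tested, 40 (25.3%) passed in controls and 30 (19.0%) after laparotomy. The median difference was 0.17 over members and 0.24 over parents in controls, and 0.36 and 0.20 after laparotomy. Eif4a-ps4, Sms-ps, Ptges3-ps, Zfp422-ps, Rpl31-ps8, Rpl10-ps3 and Ifi203-ps passed in both. Rpl10a-ps1 was called in controls (0.45 ± 0.097, adjusted p = 0.0439) but not in the averaged comparison. The means compared in controls and after laparotomy share no library, but both comparisons take their spread from the same estimate over all 12 libraries. The averaged comparison uses all of the libraries.

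The laparotomy comparisons ask how surgery changed the same genes. By limma no member passed in LF, in HF, averaged or in the interaction, the difference of the laparotomy response between HF and LF, and 0% of all 10757 genes passed in each of the 4. At an unadjusted p under 0.05 in limma there were 8 members (20.5%) and 291 of all genes (2.71%) in LF, and 1 (2.56%) and 665 (6.18%) in HF. Averaged there were 4 (10.3%) and 747 (6.94%), and in the interaction 5 (12.8%) and 331 (3.08%). Of the 158 parents tested there were 32 (20.3%) in LF, 6 (3.80%) in HF, 10 (6.33%) averaged and 29 (18.4%) in the interaction. Of 142 other processed pseudogenes there were 21 (14.8%), 9 (6.34%), 15 (10.6%) and 16 (11.3%) in the same order. Among members the smallest unadjusted p in LF was that of Rps12-ps3, with 451 ± 113 TPM in LF control and 688 ± 35.2 in LF laparotomy (SD, n = 3 each). The difference was 0.67 ± 0.15 and did not pass in limma (adjusted p = 0.99954). All 3 LF laparotomy libraries lay above the LF controls, and in HF the groups, at 689.8 ± 56.4 and 708 ± 18.7 TPM, overlapped. The median laparotomy difference over the 39 members was 0.054 in LF and 0.12 in HF, and over parents 0.068 and 0.034.

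Single libraries decided some values. Rpl38-ps2, an exact copy of a large-subunit gene, had 23.5 TPM in HF laparotomy 3 and was listed at 0 in the other 11, while Rpl38 had 569.9 TPM there and 394 to 639 over all libraries. Without that library it is listed at 0 throughout and is not tested. Rpl14-ps1 at 0.0214 TPM in HF control 3 and Ptges3-ps at 0 in HF laparotomy 1 are of the same kind, as neither parent stood apart there (Rpl14 at 248 and Ptges3 at 33.1 TPM). Without the library in question the HF against LF difference was -1.46 for Rpl14-ps1 (adjusted p = 0.0014) and -1.94 for Ptges3-ps (adjusted p = 0.000947).

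Role groups were lists of parent symbols, and a copy outside a list can share its theme. The 221 ribosomal members had a median of 0.0614 TPM, and of the 17 tested 8 were higher, 1 lower and 8 not called. In the list of translation factor symbols, to which Tpt1 was added although it is not such a factor, 2 of 13 members were tested, Tpt1-ps3 and Eif4a-ps4, and Eif4a-ps4 fell. Of 16 in the chromatin and RNA binding group 1 was tested, Hmgb1-ps8 (1.76 TPM), a copy of a DNA-bending protein gene, and not called. In the list of respiratory chain, carrier and import symbols 1 of 8 members was tested, Atp5l2-ps (1.33 TPM), most like the ATP synthase subunit gene Atp5l, and not called. Mrpl23-ps1, called higher, and Apoo-ps, not called, also have parents with mitochondrial products but lie outside that list. The 6 members in the list of glycolytic and other cytosolic enzymes and the 13 in that of actin, tubulin, heat shock and adaptor symbols reached 0.237 and 0.235 TPM at most. The co-chaperone copy Ptges3-ps and the dynein light chain copy Dynlt1-ps1 (4.68 TPM) are outside the latter list. In the enzyme list the parent Gapdh had 3288 TPM beside 0.0878 TPM of Gapdh-ps14. In the remaining group of 196, 18 were tested, 3 higher and 4 lower.

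A parent had 3 or more copies above 0 in 34 families, which held 209 members, and 28 of the 34 were ribosomal. Rps12 had 21 copies, Rpl31 17, Rpl21 12 and Rps19 10. In most families the copies took little: they held under 1% of the family's TPM in 22 of the 34 and over 50% in 5 (Rps12, Rpl31, Rpl10, Rpl28 and Rpl27). In each of those 5 a single copy carried the share. Rps12-ps3 had 634 of the 636 TPM of all Rps12 copies, whose median was 0.0119 TPM, and Rpl31-ps8 361 of 362. Rpl21, with 12 copies of 88.3% to 99.4% identity and none identical, had 0.822 TPM in its copies together beside 295 TPM of the parent.

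The tissue label was checked against fixed markers. Slow-fibre genes were high in every library (Myh7 at 2179 to 3339 TPM), fast-fibre genes other than Myh4 and Pvalb were high too (Myh2 at 1098 to 3381), and lymphocyte markers stayed at 0.437 TPM or below. Myh4 ran from 3.05 to 90.8 TPM, with LF control 3, LF laparotomy 1 and HF laparotomy 2 above 30. Without these 3 libraries 16 of 39 members passed between HF and LF, 10 higher and 6 lower. Over all genes 3654 of 10789 passed without them, and 9.7% of those called were higher. Each library listed 16993 to 18148 genes above 0. In bulk tissue fewer cells of a type and less RNA per cell cannot be told apart.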

How the data were processed

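Gene TPM of 12 soleus libraries were deposited by the authors, from RNA extracted with QIAzol and columns and a stranded kit after polyA selection, per the labels' protocols. Per the submitters' processing notes the tools include kallisto and DESeq2 and the build is GRCm38; versions, roles and the strand setting are unknown here. TPM summed to 956473 to 962830 per library. Symbols, coordinates and sequences came from GENCODE M21. Transcripts were aligned with blastn 2.17.0, and words of 31 bases were compared on both strands. From the TPM, log2(TPM + 1) was tested with limma 3.58.1 (R 4.3.3) in the 10757 genes averaging 1 TPM or more (trended variance, a mean for each of the 4 groups, 8 residual degrees of freedom). Alternatives were pseudocounts, filters, scalings, a length and GC trend, robust fits and left-out libraries. Named were the 12 highest members, up to 10 called by p and up to 8 above their parents, with parents and families; further members past the threshold are named too. The steps were tested on simulated data. Members and lists were chosen with earlier results of these data known.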

Additional observations from a re-analysis of the deposited data

Results flagged for a closer look

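In Rpl27-ps3 the laparotomy difference as deposited was above 0 in LF and below 0 in HF in every library. It had 233, 177 and 252 TPM in LF control and 287, 265 and 262 in LF laparotomy, so every laparotomy library lay above every control. In HF it had 292, 312 and 306 TPM in controls and 290.5, 280.4 and 275 after laparotomy, so every laparotomy library lay below every control. The interaction in limma was -0.4189 on the log2 scale as deposited, and it did not pass (adjusted p = 0.99979), so a difference between HF and LF is not shown. Relative to the median of all genes the difference was above 0 in both, 0.34 in LF and 0.015 in HF. Apoo-ps and Rpl10a-ps1 also had group differences of opposite sign as deposited (-0.79 in LF and 0.69 in HF, and 0.28 and -0.11), with interactions that did not pass (adjusted p = 0.99979 each). Rpl27-ps3 is identical to its parent Rpl27 over its whole length, and its level is uncertain.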

How the results depend on the processing

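With no filter on low values, 24 of 538 members passed between HF and LF, 15 higher and 9 lower. Of these 24, 15 were among the 17 reported. Over all genes 3760 of 22738 passed in that setting, a larger share than among members. In the same setting 1 member passed for laparotomy in HF: Rpl13a-ps1 (adjusted p = 0.0188), listed at 0 in 9 libraries and at 0.0561 to 0.0640 TPM in HF laparotomy. Higher in HF were 17 members with quantile normalization and 18 with size factors, against 11 as reported, of which Tpt1-ps3, Rpl10a-ps1, Rps16-ps2, Llph-ps2, Trmt112-ps2 and Ppp4r1l-ps were added by both. With a length and GC trend removed, 9 were higher and 7 lower. The count called either way, 17, was between 16 and 18 without any 1 library. Bambi-ps1, Eif4a-ps4, Ifi203-ps, Mrpl23-ps1, Ptges3-ps, Rpl10-ps3, Rpl14-ps1, Rpl28-ps1, Rpl31-ps8, Rps23-ps1, Sms-ps and Zfp422-ps passed in every setting in which they were tested, and no direction of the 17 reversed. Bambi-ps1, Ifi203-ps and Zfp422-ps were too low for the setting that required a mean of at least 5 TPM. Why calls moved was not tested. No paired analysis was possible because replicate numbers follow accession order and pair nothing. TPM give no depth, and the 499 members under 1 TPM were tested only in the setting with no filter.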

Other observations

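Among the 65 members above 0 that are named after chemosensory or immune receptors, none was annotated as processed and none reached 1 TPM, with a median of 0.00586 TPM. The highest was Olfr1268-ps1, a polymorphic pseudogene of an olfactory receptor, at 0.430 TPM and above 0 in all 12 libraries, followed by Vmn1r-ps128, a vomeronasal receptor pseudogene, at 0.240 TPM. This group holds 347 of the 1143 symbols.

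Below the level tested, 6 more members had a higher mean than their parent. Ccnb2-ps, a transcribed copy of a mitotic cyclin gene 81.2% identical over the 33.0% of it that aligns, had 0.649 TPM and Ccnb2 0.129, and Nlrp5-ps, from an oocyte gene, had 0.464 TPM and Nlrp5 0.0156. Both were above 0 in all 12 libraries. Identity did not always come with a high level: of the 20 members above 0 that are identical to their parent throughout, Hmgn2-ps1 had 0.566 TPM and was above 0 in 8 libraries, Pgam1-ps2 had 0.237 TPM in 2 libraries, and Rpl10-ps1 had 3.56e-09 TPM while Rpl10-ps3 had 447.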
